A study of Homo sapiens with 18 samples.

Results

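GOT1, CBS and GAMT encode 3 enzymes of amino acid and creatine metabolism, and they were described in 2 human acute myeloid leukaemia cell lines across 6 groups of 3 RNA-seq libraries. They were picked by symbol, with their values in these data known, and are 3 of 2635 sets of values to which the deposited table allowed a gene symbol to be tied, out of 5069 distinct sets. OCI-AML2 is labelled as NPM1 wild type, and OCI-AML3 as NPM1c+, the mutated nucleophosmin that is displaced to the cytoplasm. Of each line the study sequenced parental cells with intact caspase-2 and clones 1 and 2, both labelled as caspase-2 knockouts made with CRISPR/Cas9. All cells were untreated and grown in the same serum-containing medium. Each clone is a single clone, so a difference between a clone and its parent cannot be told apart from variation between clones, and nothing in the labels says that the 3 libraries of a group came from separate cultures.

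GOT1 is the cytosolic aspartate aminotransferase, which exchanges amino groups between aspartate and glutamate and forms part of the malate-aspartate shuttle that carries reducing equivalents into mitochondria. CBS, cystathionine beta-synthase, joins homocysteine and serine in the first step of transsulfuration, the route from methionine to cysteine and glutathione. GAMT, guanidinoacetate methyltransferase, completes creatine synthesis by methylating guanidinoacetate, the product of GATM, with the methyl group of S-adenosylmethionine. In bulk RNA a lower level can mean fewer cells with the transcript or less transcript per cell, and these cannot be told apart.

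The identity of these lines needs stating before their values. The table stacks lists of genes selected for a change, and 96.8% of its 6999 lines had a log2 ratio of at least 0.95 in a listed comparison. In the list for the parental comparison many symbols are printed against the wrong values. The 3 genes are printed on 5 lines. GOT1 has 1 line with no competing copy. GAMT has 2 lines, and the line kept holds the OCI-AML3 clone 1 values in the order that its copy under HOXB9 rotates. The dropped line is itself a rotated copy of values that stand under SPATA13. CBS is the least certain of the 3. It has 2 lines, neither repeated elsewhere, and the choice between them rests on the order of the stacked lists. The same rule asked for log2 ratios under 0.6 in OCI-AML2 clone 1 and in at least 1 OCI-AML3 clone. That rule left CBS with no symbol when 0.01 TPM was added to the values used to place lines, the first setting tried. The setting was changed to 0.1 TPM after CBS had been seen without a symbol, and settings of 0.05, 0.5 and 1 TPM gave the same CBS line as 0.1. If the dropped line were CBS, its level would be 52.81, 61.47 and 59.97 TPM in parental OCI-AML2, and its difference between the parental lines would be -0.96 on the log2 scale in place of 6.77. CBS also has a near-identical copy in the genome, CBSL, whose reads the authors' counting could have assigned to either gene. Every CBS value below carries these limits.

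The windows around the transcription starts of GOT1 and CBS are shown because these transcripts were abundant in some groups and at or near 0 TPM in others. They come from RefSeq on GRCh38.p14, both genes lie on the minus strand, and each window runs from 250 bases before the start to 50 bases from it on. GOT1 has 1 listed start and CBS 3, of which the first and second are printed, and 2 of the 3 genes had an entry. Capitals mark 3 motifs on either strand, namely the box CCAAT that NF-Y binds, the GC box GGGCGG that SP1 binds, and TGATGNAA, a composite element of C/EBP and ATF factors.
GOT1, chr10:99430575-99430874: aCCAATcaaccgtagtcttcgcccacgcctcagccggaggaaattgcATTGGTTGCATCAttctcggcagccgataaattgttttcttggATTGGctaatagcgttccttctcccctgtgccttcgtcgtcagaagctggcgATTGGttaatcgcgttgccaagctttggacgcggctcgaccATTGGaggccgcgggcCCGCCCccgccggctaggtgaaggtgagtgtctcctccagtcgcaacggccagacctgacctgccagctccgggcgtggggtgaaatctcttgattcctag
CBS first start, chr21:43076328-43076627: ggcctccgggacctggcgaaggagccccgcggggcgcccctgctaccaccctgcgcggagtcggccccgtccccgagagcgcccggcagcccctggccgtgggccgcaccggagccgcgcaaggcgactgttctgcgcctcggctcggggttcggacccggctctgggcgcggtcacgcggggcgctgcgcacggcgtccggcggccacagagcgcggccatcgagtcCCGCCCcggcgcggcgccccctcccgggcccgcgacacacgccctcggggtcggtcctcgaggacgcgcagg
CBS second start, chr21:43075786-43076085: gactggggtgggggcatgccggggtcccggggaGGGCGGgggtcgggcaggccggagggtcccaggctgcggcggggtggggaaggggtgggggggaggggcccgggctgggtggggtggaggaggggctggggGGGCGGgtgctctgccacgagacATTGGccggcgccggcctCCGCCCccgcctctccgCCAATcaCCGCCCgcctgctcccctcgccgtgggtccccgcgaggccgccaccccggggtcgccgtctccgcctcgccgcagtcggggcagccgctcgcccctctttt
The GOT1 window holds 5 CCAAT boxes, 1 GC box and 1 TGATGNAA match. Of 35116 promoter windows of this length, 34.6% hold a CCAAT box, 45% a GC box and 3.62% a TGATGNAA match. The first CBS window holds 50 CpG dinucleotides, a number reached by 1.29% of windows against a median of 14, and 1 GC box. The second CBS window holds 32 CpG dinucleotides, 4 GC boxes and 2 CCAAT boxes. The third CBS window, not printed, is unlike them, with 4 CpG dinucleotides, a number reached by 75.5% of windows, 1 CCAAT box and no GC box. None of the 3 printed windows holds TATAAA, which 11.5% of windows do. These matches describe letters in the windows, and no binding was measured here.

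Levels are TPM, transcript abundance scaled by the authors for gene length and library depth, and the read depth itself is unknown. Differences are between means of log2(TPM + 1), which understates the change of low genes, from 1 limma fit over all 18 libraries. P-values are two-sided and adjusted by Benjamini-Hochberg over 4413 tested sets, with a threshold of 0.05, and a gene was called changed in a line only where both clones passed in the same direction. A comparison that brought a gene into the table or settled its symbol is given as a description without p. This division was made with the values known. CBS departs from it, since small clone changes were part of the rule that settled its symbol. The p-values given below for CBS in the clones are thus not independent of the choice of its line and support nothing. CASP2 mRNA, the targeted transcript, had means of 36.1 TPM in parental OCI-AML2 against 3.50 and 4.45 in its clones, and of 28.7 TPM in parental OCI-AML3 against 27.1 and 32.1, so the OCI-AML3 clones are clones labelled as knockouts. Of 16 myeloid markers 5 had a settled symbol (ANPEP, ITGAM, CD14, AZU1 and PRTN3), none at 0 in all libraries. Their summed level ran from 2917 to 3562 TPM in parental OCI-AML2, 7212 to 9648 in its clone 1 and 2797 to 3652 in its clone 2. In OCI-AML3 it ran from 8247 to 10081 TPM in the parental cells, 2994 to 3178 in clone 1 and 3604 to 4263 in clone 2. Of 22 markers of other cell types 4 were settled (CD3D, NKG7, ITGA2B and COL1A2). Their sums ran from 67.2 to 196 TPM over the OCI-AML2 libraries and from 5.27 to 23.01 over the OCI-AML3 libraries. The part of either marker list in the results below was not tested.

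**Figure D1:**
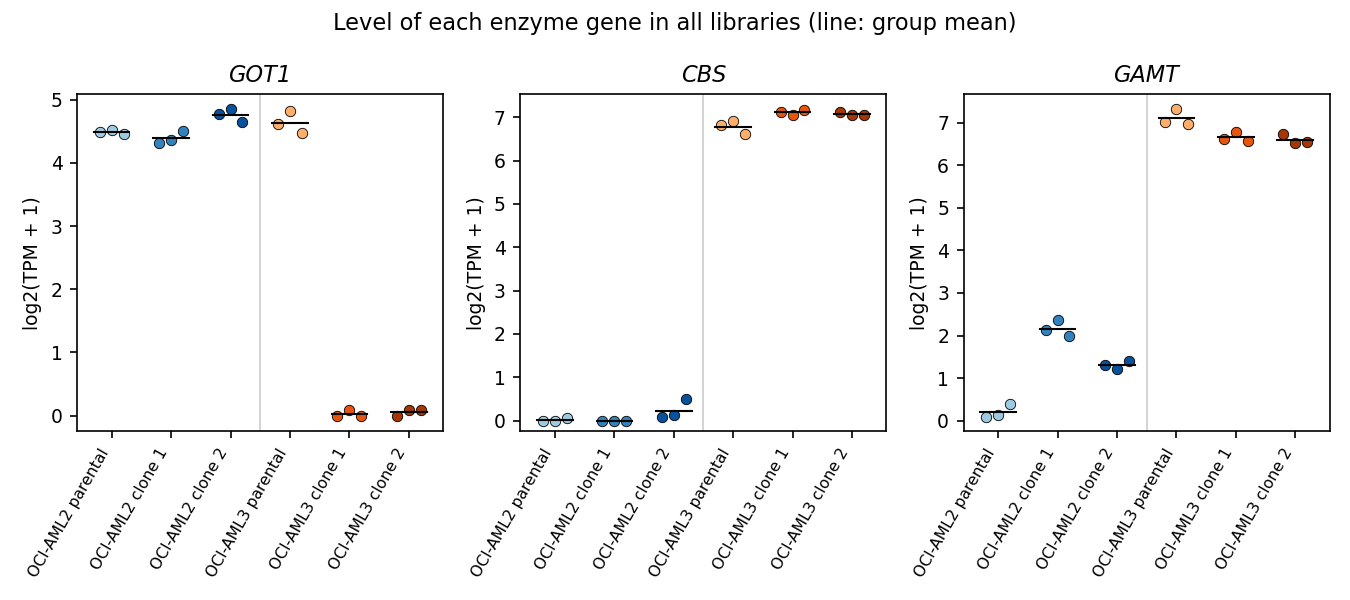
Level of GOT1, CBS and GAMT as log2(TPM + 1) in each of the 18 libraries, with points for libraries, horizontal lines for group means and a separate vertical axis per gene. GOT1 lies at the bottom in the 6 libraries of the OCI-AML3 clones, and CBS in the 9 libraries of OCI-AML2, while GAMT is near the bottom in parental OCI-AML2 and intermediate in its clones.

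GOT1 was present at similar levels in 4 groups and almost absent from the OCI-AML3 clones. Parental OCI-AML3 libraries held 23.43, 27.38 and 21.18 TPM of GOT1. Clone 1 held 0, 0.06 and 0 TPM, and clone 2 held 0, 0.06 and 0.06 TPM. Every library of either clone was therefore far below every parental library, as the plot of levels by library shows. On the log2(TPM + 1) scale the difference was -4.61 in clone 1 and -4.58 in clone 2 (SE 0.088 each), the sixth largest fall of all tested sets by the mean of both clones. These values are the ones that brought GOT1 into the table. Clone 2 minus clone 1 was 0.03, which is no test, since both clones were selected as low and lie at the floor. Of 1190 tested sets with a parental OCI-AML3 mean of at least 20 TPM, 1 was at or below 0.1 TPM in all 6 clone libraries, and that set was GOT1. These limits were chosen after the values had been seen.

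In OCI-AML2 the same aminotransferase transcript stayed within a narrow range. Parental libraries held 21.38, 22.08 and 20.88 TPM of GOT1, those of clone 1 held 18.82, 19.52 and 21.71 TPM, and those of clone 2 held 26.41, 27.81 and 23.94 TPM. Clone 1 overlapped the parental libraries, and clone 2 lay above them. The difference was -0.10 in clone 1 (95% interval -0.28 to 0.09, limma adjusted p = 0.386) and 0.27 in clone 2 (SE 0.088, limma adjusted p = 0.0126), so GOT1 was not called changed in OCI-AML2. Of all tested sets 56.0% passed in clone 1 and 65.7% in clone 2. The clone 2 call was lost without clone 2 replicate 2 (0.22, limma adjusted p = 0.0603) and with a pseudocount of 0.1 (0.28, limma adjusted p = 0.222). Clone 2 was higher than clone 1 by 0.36 (limma adjusted p = 0.00169), a call also lost with a pseudocount of 0.1 (0.38, limma adjusted p = 0.107). In order of mean level the groups ran from OCI-AML2 clone 2 (26.1 ± 1.96 TPM, SD, n = 3) through parental OCI-AML3 (24.0 ± 3.14), parental OCI-AML2 (21.4 ± 0.603) and OCI-AML2 clone 1 (20.02 ± 1.51) to the OCI-AML3 clones. Each neighbouring pair among the first 4 overlapped in range.

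CBS separated the lines. The OCI-AML3 libraries held 111.88, 119.61 and 97.65 TPM in the parental cells, 138.46, 131.47 and 143.73 TPM in clone 1 and 137.18, 130.99 and 132.69 TPM in clone 2. The OCI-AML2 libraries held 0, 0 and 0.04 TPM in the parental cells, 0 TPM in all 3 of clone 1 and 0.05, 0.09 and 0.41 TPM in clone 2. No OCI-AML3 library came near any OCI-AML2 library. The parental difference was 6.77 on the log2(TPM + 1) scale (SE 0.096), which is the comparison that placed CBS in the table. Of 230 tested sets with at least 90 TPM in all 9 OCI-AML3 libraries, CBS was among 5 at or below 0.5 TPM in all 9 OCI-AML2 libraries, by limits chosen after the values had been seen.

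Within OCI-AML3, CBS was higher in both clones than in the parental cells, and no clone library overlapped a parental one. The mean was 1.26 times the parental level in clone 1 and 1.22 times in clone 2. The log2 difference was 0.33 in clone 1 (SE 0.096, limma adjusted p = 0.00472) and 0.29 in clone 2 (SE 0.096, limma adjusted p = 0.0121). Small clone changes helped to settle the symbol CBS, so these p-values and those that follow for its clones are descriptions. The clone 2 call was lost without parental replicate 3 (0.21, limma adjusted p = 0.0817). With a pseudocount of 0.1 neither clone passed (limma adjusted p = 0.328 and 0.397), and with rescaling by medians of ratios the differences were 0.48 and 0.46. Clone 2 minus clone 1 was -0.04 (95% interval -0.25 to 0.16, limma adjusted p = 0.86). In OCI-AML2, where the level was near 0, the difference was -0.02 in clone 1 (limma adjusted p = 0.93) and 0.21 in clone 2 (limma adjusted p = 0.062). The clone 2 value rests mostly on its replicate 3, at 0.41 TPM, and was 0.079 without that library. The difference passed without replicate 1 (0.29, limma adjusted p = 0.0165) or replicate 2 (0.26, limma adjusted p = 0.0372). It also passed without parental OCI-AML3 replicate 3 (limma adjusted p = 0.0493) and with a pseudocount of 0.1 (1.13, limma adjusted p = 0.00318). The change in OCI-AML3 minus the change in OCI-AML2 was 0.21 (95% interval -0.03 to 0.46, limma adjusted p = 0.103), and CBS was not called different between the lines. The sign of that difference turned with a pseudocount of 0.1 (-0.17, limma adjusted p = 0.675). It passed with rescaling by medians of ratios (0.38, limma adjusted p = 0.00614) and without OCI-AML2 clone 2 replicate 3 (0.28, limma adjusted p = 0.00958).

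GAMT was also abundant in OCI-AML3 and low in OCI-AML2, and it moved in opposite directions in the clones of the 2 lines. The OCI-AML3 libraries held 128.75, 157.74 and 125.05 TPM in the parental cells, 96.73, 109.13 and 93.62 TPM in clone 1 and 104.97, 91.26 and 92.33 TPM in clone 2. The clone libraries all lay below the parental ones. GAMT fell to 72.8% of the parental mean in clone 1 (log2 difference -0.45, SE 0.11, limma adjusted p = 0.00147) and to 70.1% in clone 2 (log2 difference -0.50, SE 0.11, limma adjusted p = 0.00056). Both tests share the parental OCI-AML3 libraries with the parental difference that selected GAMT, so they are not independent of that selection. With a pseudocount of 0.1 the differences were -0.45 and -0.51 and no longer passed (limma adjusted p = 0.0972 and 0.0653). With rescaling by medians of ratios the differences were -0.30 and -0.33. In a fit of the OCI-AML3 libraries alone both clones passed (limma adjusted p = 0.000749 and 0.000317). Clone 2 minus clone 1 was -0.05 (95% interval -0.29 to 0.18, limma adjusted p = 0.855).

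In OCI-AML2 the creatine enzyme started from 0.06, 0.1 and 0.31 TPM in the parental cells. Clone 1 held 3.38, 4.11 and 2.98 TPM, while clone 2 held 1.46, 1.33 and 1.66 TPM. All 3 groups were separate in range, with clone 1 highest. GAMT in clone 2 was higher by 1.11 on the log2 scale (SE 0.11). This difference shares the low parental libraries with the comparisons that selected GAMT, so it is a description. In clone 1 the difference was 1.96, the comparison that may have brought GAMT into the table. The means were 22.3 and 9.47 times the parental mean of 0.157 TPM, a level too low for a precise ratio. Clone 2 minus clone 1 was -0.85. The highest OCI-AML2 clone library still held far less GAMT than any OCI-AML3 library. The parental difference was 6.90 (SE 0.11), and the change in OCI-AML3 minus the change in OCI-AML2 was -2.01 (SE 0.14), both as descriptions.

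**Figure D2:**
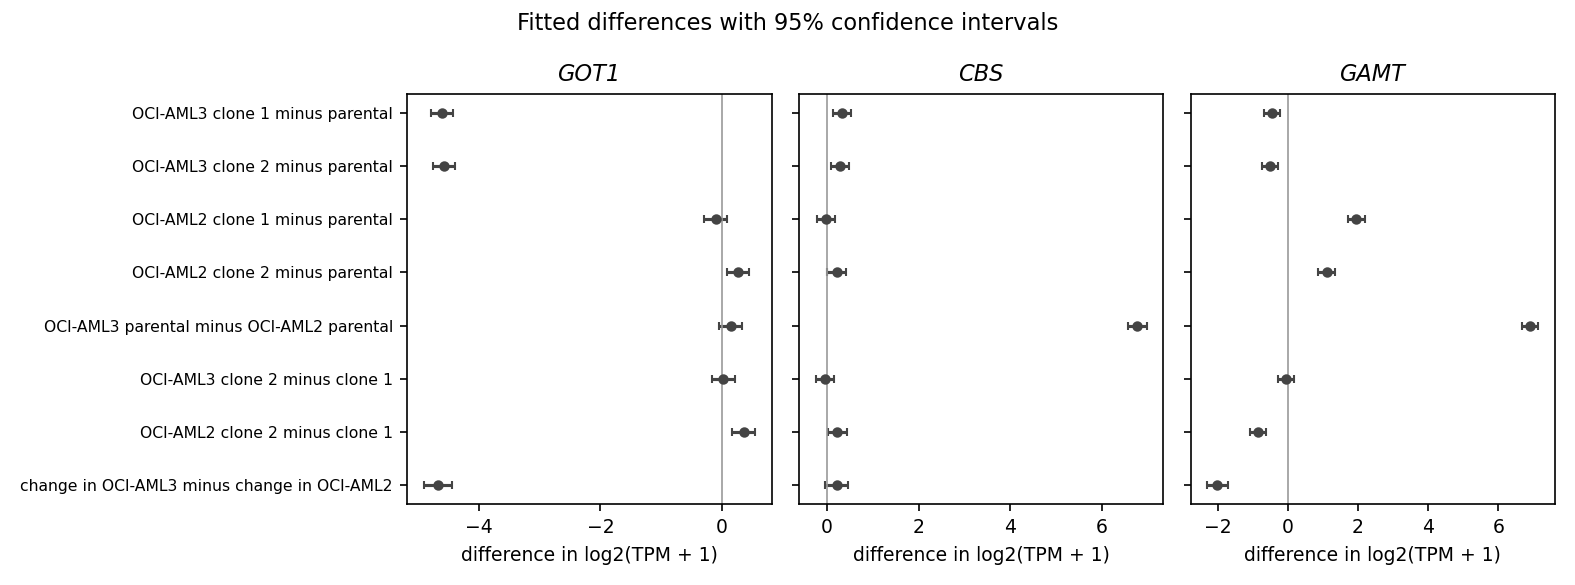
Fitted differences in log2(TPM + 1) for GOT1, CBS and GAMT in 8 comparisons, with bars for 95% confidence intervals and a separate horizontal axis per gene. GOT1 lies far below 0 in the OCI-AML3 clones (-4.61 and -4.58) and in the difference between lines (-4.68), while CBS (6.77) and GAMT (6.90) depart most from 0 between the parental lines.

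In OCI-AML3, CBS passed as higher and GAMT as lower in both clones, within the limits given above for each. The fall of GOT1 there is a description, since it brought the gene into the table. Of all tested sets 67.1% passed in both OCI-AML3 clones (72.2% in clone 1 and 73.1% in clone 2 taken singly). In OCI-AML2 neither GOT1 nor CBS was called in both clones, where 38.4% of all tested sets passed in both clones. The higher level of GAMT in both clones of that line is a description. The differences between lines of GOT1 and GAMT rest on the values that selected them and are descriptions too, in a comparison where 61.3% of all tested sets were called. In a table of selected genes these shares are high, and nothing is read from the counts of 3 genes. GOT1 lay at the floor in both OCI-AML3 clones, so no difference between them could show. Of CBS and GAMT neither differed past the threshold between those clones, where 6.82% of tested sets did. Between the OCI-AML2 clones GOT1 and CBS did, where 58.9% of tested sets did, with CBS at 0.23 (limma adjusted p = 0.0477), a call kept in 7 of 23 alternatives. GAMT differed there by -0.85, the largest difference of the 3, which is given as a description and not as a call.

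The settled genes whose 6 group means ran most like those of each enzyme were found by Pearson correlation over 2228 candidates, as a description over 6 points. For GOT1 they were LIMA1 (r = 0.9975), an actin-binding protein, MTCL1 (0.9966), a microtubule-associated protein, and RGS19 (0.9957), a regulator of G protein signalling. LIMA1 fell from a mean of 10.1 TPM in parental OCI-AML3 to 2.21 and 1.99 TPM in the clones, so it kept a part of its level where GOT1 did not. RGS19 also kept a part, with means of 220 TPM and then 82.8 and 90.6 TPM. MTCL1, a lower transcript, fell there from 2.68 TPM to 0.107 and 0.16 TPM, so GOT1 was not alone in nearing 0. For CBS they were TWIST1 (0.9997), a basic helix-loop-helix transcription factor, HIST3H2A (0.9997), a histone gene, and ZNF23 (0.9995), a zinc finger gene. TWIST1 had means of 24.7, 26.0 and 26.7 TPM in the 3 OCI-AML3 groups and at most 0.0467 TPM in OCI-AML2. For GAMT they were CD163L1 (0.9988), a scavenger receptor, IFITM3 (0.9973), an interferon-induced membrane protein, and ICOSLG (0.9971), the ligand of ICOS.

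The other genes of these pathways came from lists of 143 genes, of which 42 were printed in the table, 25 had a settled symbol and 23 were tested, the 3 enzymes included. Over all lists 9 genes were higher, 9 lower and 5 not called in OCI-AML3, and 7 were higher, 7 lower and 9 not called in OCI-AML2. Over all tested sets with a settled symbol, 34.7% were higher and 46.0% lower in OCI-AML3, and 27.3% were higher and 16.0% lower in OCI-AML2. The genes entered the table because they were selected for a change, so these counts are descriptions. With symbols as printed 15 list genes would be higher in OCI-AML3 and 13 in OCI-AML2. Of 9 genes next to a member in its pathway 3 had a settled symbol, namely CTH, GATM and SLC6A8.

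Of 3 tested genes around aspartate, ASS1 and ASRGL1 stood beside GOT1, and they moved in opposite directions. ASS1, argininosuccinate synthase, which consumes aspartate, rose in OCI-AML3 from 1055.86, 1015.06 and 977.27 TPM to 1982.41, 1938.17 and 2012.25 TPM in clone 1 and 2058.84, 1984.98 and 2045.91 TPM in clone 2. In OCI-AML2 it fell from a mean of 1134 TPM to 559 and 133 TPM. The ASS1 difference between lines was 3.03 (SE 0.09). ASRGL1, an asparaginase that releases aspartate, fell from 2.08 TPM to 0.35 and 0.437 TPM in the OCI-AML3 clones, whereas OCI-AML2 clones had 13.0 and 26.8 TPM after 4.04 TPM in the parental cells. The median change of the list was -1.17 in OCI-AML3 and 0.09 in OCI-AML2, where the medians over all settled sets were -0.13 and 0.06.

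**Figure D3:**
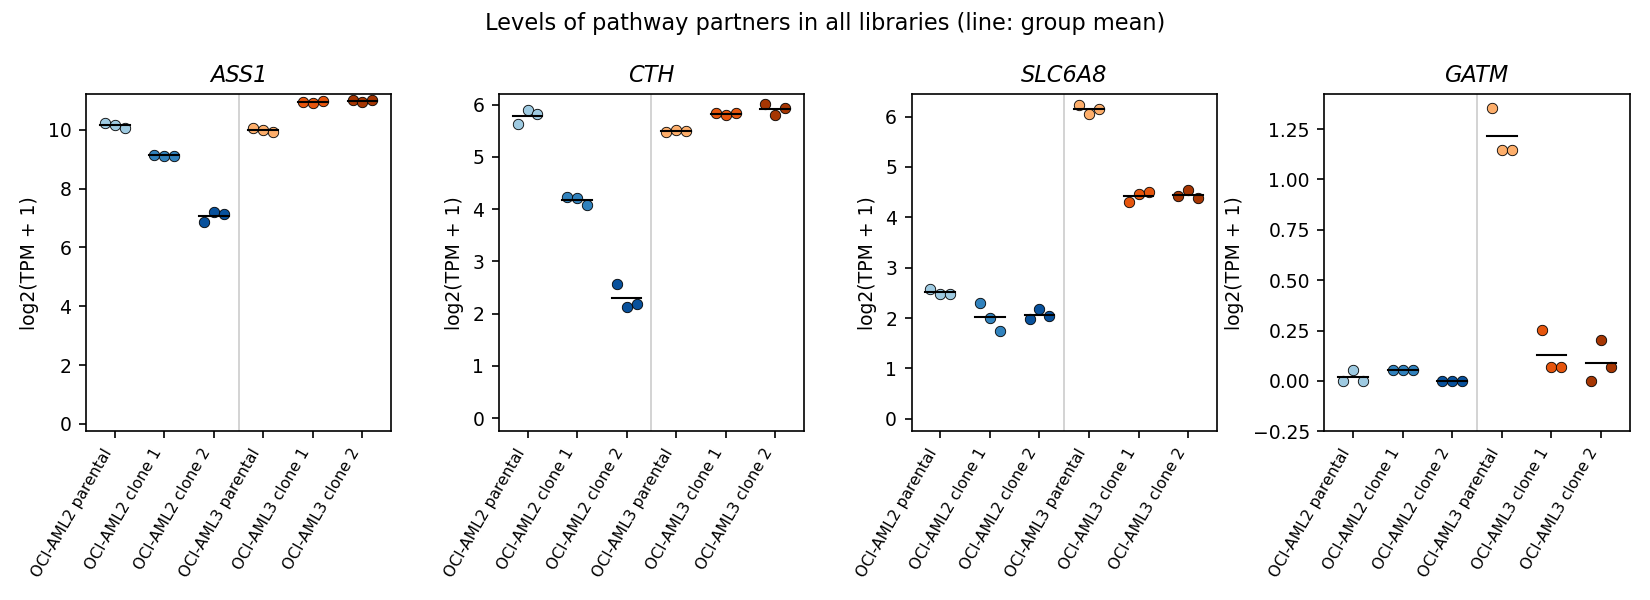
Level of ASS1, CTH, SLC6A8 and GATM as log2(TPM + 1) in each of the 18 libraries, with points for libraries, lines for group means and a separate vertical axis per gene. ASS1 and CTH are higher in the OCI-AML3 clones and lower in the OCI-AML2 clones than in the parental cells, and SLC6A8 and GATM are lower in the OCI-AML3 clones.

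Of 9 tested genes of the methionine cycle, transsulfuration and glutathione, 7 rose and 1 fell in OCI-AML3, while 2 rose and 4 fell in OCI-AML2. The 7 include CBS, whose symbol is uncertain. With the other line printed under CBS neither OCI-AML3 clone passed (limma adjusted p = 0.0513 and 0.783). Over settled sets 34.7% were higher and 46.0% lower in OCI-AML3, and 27.3% and 16.0% in OCI-AML2. The gene that fell in OCI-AML3 was CDO1, cysteine dioxygenase (-1.24), named although outside the naming rule. It reached the filter only in parental OCI-AML3, so its fall had to follow and is no support. In OCI-AML3 the median change was 0.40, or 0.75 without CDO1, while OCI-AML2 had -0.19, or -0.64 without CDO1. CTH, cystathionine gamma-lyase, uses the product of CBS. It held 43.61, 44.86 and 44.01 TPM in parental OCI-AML3, 56.66, 54.5 and 56.13 TPM in clone 1 and 63.44, 54.71 and 60.03 TPM in clone 2. In OCI-AML2 CTH fell from 48.2, 58.72 and 55.17 TPM to 17.89, 17.48 and 15.88 TPM in clone 1 and 4.97, 3.4 and 3.56 TPM in clone 2. The clones and parental cells did not overlap in either line, and in OCI-AML2 CTH was present where CBS was near 0. CHAC1, which degrades glutathione, rose in OCI-AML3 from 127 TPM to 286 and 331 TPM and fell in OCI-AML2 from 88.9 TPM to 49.5 and 8.59 TPM. MTRR, which restores methionine synthase, rose in OCI-AML3 from 83.7 TPM to 102 and 120 TPM and fell in OCI-AML2 from 113 TPM to 40.3 and 61.2 TPM. SLC7A11, the cystine importer, rose in both lines, in OCI-AML3 from 6.83 TPM to 29.3 and 23.3 TPM, in OCI-AML2 from 14.1 TPM to 22.5 and 35.9 TPM. SQOR, which oxidises hydrogen sulfide, rose too, in OCI-AML3 from 23.2 TPM to 60.5 and 52.1 TPM, in OCI-AML2 from 62.1 TPM to 85.5 and 101 TPM.

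Of 4 tested creatine genes, 3 were lower and 1 higher in OCI-AML3, and 1 was higher and 2 lower in OCI-AML2. Without GATM, which reached the filter only in parental OCI-AML3, 2 were lower and 1 higher in OCI-AML3, against 46.0% and 34.7% of settled sets. In OCI-AML2 27.3% of settled sets were higher and 16.0% lower. SLC6A8, the creatine transporter, held 73.72, 65.18 and 69.92 TPM in parental OCI-AML3, 18.8, 21.04 and 21.67 TPM in clone 1 and 20.36, 22.41 and 19.79 TPM in clone 2. In OCI-AML2 it fell from 4.70 TPM to 3.09 and 3.19 TPM. GATM, which makes the substrate of GAMT, held 1.56, 1.21 and 1.21 TPM in parental OCI-AML3 and at most 0.19 TPM in any other library, so its lower level in the clones follows from the filter and is no support. GAMT, at 137 ± 17.9 TPM (SD, n = 3) in parental OCI-AML3, thus stood far above GATM on the length-scaled TPM scale. CKM, the muscle creatine kinase, rose in OCI-AML3 from 0.173 TPM to 1.14 and 1.64 TPM and fell in OCI-AML2 from 4.54 TPM to 2.34 and 1.70 TPM. In OCI-AML3 the median change of the creatine list was -0.79, or -0.48 without GATM, while OCI-AML2 had -0.23, or -0.47 without GATM.

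Of 4 tested genes of arginine, proline and polyamines, 2 fell in OCI-AML3, while OCI-AML2 had 1 that rose, beside 46.0% of settled sets lower in OCI-AML3 and 27.3% higher in OCI-AML2. ALDH4A1, of proline breakdown, fell in OCI-AML3 from 14.6 TPM to 6.24 and 5.75 TPM. ARG2, the mitochondrial arginase, fell there from 1.27 TPM to 0.1 and 0.0633 TPM. DDAH2 rose in OCI-AML2 from 13.2 TPM to 29.0 and 17.3 TPM. Of 2 tested genes of amino acid breakdown, 2 were higher in OCI-AML2, beside 27.3% of settled sets. KYNU, the kynureninase of tryptophan breakdown, rose there from 7.37 TPM to 16.1 and 16.3 TPM. In OCI-AML3 KYNU fell from 0.470 TPM to 0 and 0.0267 TPM, a change near the floor. No OCI-AML3 library reached 1 TPM of KYNU, which was tested only through its OCI-AML2 level. IL4I1, an amino acid oxidase, rose in OCI-AML2 from 0.657 TPM to 2.25 and 2.503 TPM. IL4I1 reached the filter only through the OCI-AML2 clones, so its rise had to follow and is no support. FTCD, the only tested gene of the serine and folate list, named although outside the naming rule, was not called in either line.

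**Figure D4:**
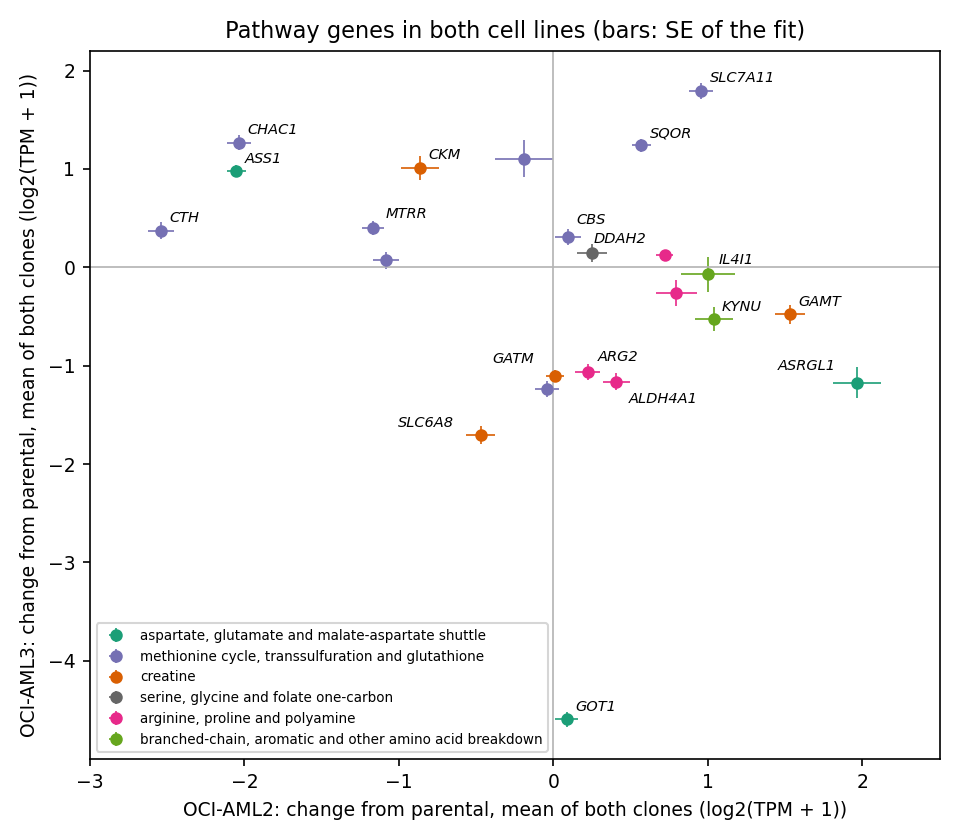
Change from parental, as the mean of both clones in log2(TPM + 1), in OCI-AML2 (horizontal) and OCI-AML3 (vertical) for the 23 tested list genes, with bars for the SE of the fit and colours for the lists. GOT1 lies alone at the bottom (-4.59 in OCI-AML3), while ASS1, CTH, CHAC1, MTRR and CKM lie at upper left, higher in OCI-AML3 and lower in OCI-AML2.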

How the data were processed

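RNA was sequenced from 18 libraries, 3 in each of 6 groups taken from the sample titles. Values are TPM as the authors deposited them, per the file headers. An aligner, a counter, a build or an annotation is not given in the sources used here. TPM keeps no read number, so depth is unknown and no counting interval is given, and per library the values add up to 170141 to 199403 TPM. All 18 value columns matched a sample.

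Each distinct set of 18 values was counted once. Symbols were tied to 2635 of 5069 sets, 1529 by the replicate order of OCI-AML3 clone 1, 118 by repetition under 1 symbol, 775 by a parental log2 ratio under 0.6 and 213 by list order. The replicate numbers of OCI-AML3 clone 1 are therefore unsettled. Lines were placed with 0.1 TPM added. This first stood at 0.01 TPM, which settled 2500 sets and gave CBS no symbol, and it was raised after that outcome had been seen, so the name CBS depends on a choice made with its result known.

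The 4413 sets that reached 1 TPM in 3 or more libraries were fitted on the log2(TPM + 1) scale by limma 3.58.1 (R 4.3.3), 1 mean per group, an intensity trend, 12 residual degrees of freedom and Benjamini-Hochberg adjustment. An exact permutation test of 3 against 3 cannot go below p = 0.1 and was not used. The fit was tested on simulated data. Named genes were the 3 enzymes, 9 pathway neighbours where settled, up to 3 changed genes per list and line with the largest mean change, and the 3 genes most like each enzyme. Members and lists were chosen with earlier results of these data known. The limits of 20, 90, 0.1 and 0.5 TPM in near-zero counts and the division between tested and described comparisons were chosen after the values had been seen. Alternatives were the pseudocount, the filter, rescaling, 1 line alone, a replicate block, each library left out, printed symbols, the other printed line and the placing value. Within groups, libraries correlated at 0.9928 to 0.9966.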

Additional observations from a re-analysis of the deposited data

Results flagged for a closer look

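Of 18 named pathway genes, the 3 enzymes included, 16 had an unequal change in the clones of the 2 lines by all 4 pairwise differences of clone changes (limma, adjusted p under the threshold of 0.05). Over all tested sets 61.3% were called in the same way. Most of the 16 were named for a large change in 1 of the lines, so the number is a description and supports nothing. Values are the mean clone change in OCI-AML3 minus that in OCI-AML2, in log2(TPM + 1). Among the enzymes it was -4.68 for GOT1 and -2.01 for GAMT, and CBS was not called. Around aspartate it was 3.03 for ASS1 and -3.14 for ASRGL1. Around sulfur amino acids and glutathione it was 2.91 for CTH, 3.30 for CHAC1, 1.57 for MTRR, 0.84 for SLC7A11 and 0.67 for SQOR. Among creatine genes it was -1.23 for SLC6A8 and 1.88 for CKM. It was -1.11 for GATM, which reached the filter only in parental OCI-AML3, so that its value is no test. It was -1.57 for ALDH4A1, -1.28 for ARG2 and -1.56 for KYNU. For IL4I1, which reached the filter only through the OCI-AML2 clones, it was -1.07, and that value is no test either. Rescaling by medians of ratios moved the median of this difference over all sets from -0.23 to -0.06. The genes were selected into the table for a change, and the values of GOT1 and GAMT chose them.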

How the results depend on the processing

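With a pseudocount of 0.1, GOT1 was -7.68 and -7.45 in OCI-AML3 clones 1 and 2, 0.28 in OCI-AML2 clone 2 (limma adjusted p = 0.222), 0.38 between the OCI-AML2 clones (0.107) and -7.65 between lines. CBS was 0.33 and 0.29 in the OCI-AML3 clones (limma adjusted p = 0.328 and 0.397), 1.13 in OCI-AML2 clone 2 (0.00318, now passing), 1.29 between the OCI-AML2 clones, 9.93 between the parental lines and -0.17 between lines, where the sign turned with no call on either side. GAMT was -0.45 and -0.51 in the OCI-AML3 clones (limma adjusted p = 0.0972 and 0.0653), 3.92 and 2.74 in OCI-AML2 clones 1 and 2, 9.18 between the parental lines, -1.17 between the OCI-AML2 clones and -3.81 between lines. Sets called between the OCI-AML3 clones numbered 166 in place of 301. Rescaling by medians of ratios gave differences between lines of -4.45 for GOT1, 0.38 for CBS (limma adjusted p = 0.00614, now passing) and -1.78 for GAMT. CBS between the OCI-AML2 clones was 0.23 without a filter (limma adjusted p = 0.051) and 0.23 with the replicate block (0.0618), and the block changed no other call of the 3 enzymes. Libraries with the same number did not deviate together in every pair of groups, so they share only a number. With symbols as printed, 15 list genes were higher in OCI-AML3 and 13 in OCI-AML2, in place of 9 and 7.

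Taking the other line printed under CBS gave 0.17 and 0.027 in the OCI-AML3 clones (limma adjusted p = 0.0513 and 0.783), 0.25 in OCI-AML2 clone 2 (0.00696) and -0.96 between the parental lines, a reversed direction. The other line printed under GAMT gave 0.13 in OCI-AML2 clone 1 and -1.42 between the parental lines, also reversed. Both were added after the data had been seen, as were the placing values and the lists without CDO1 and GATM, with which 9 list genes were higher and 7 lower in OCI-AML3. With 0.01 TPM added, 2500 sets were settled, CBS had no symbol and 8 list genes were higher in OCI-AML3. With 0.05, 0.5 and 1 TPM, 2568, 2884 and 3065 sets were settled, and all 3 enzymes kept the line used here.

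Leaving out 1 library at a time, GOT1 in OCI-AML2 clone 2 ran from 0.22 to 0.32, and CBS from 0.21 to 0.35 in OCI-AML3 clone 2, from 0.079 to 0.29 in OCI-AML2 clone 2, from 0.10 to 0.31 between the OCI-AML2 clones and from 0.13 to 0.28 between lines. CBS in OCI-AML2 clone 2 passed without that clone's replicate 1 or 2 or parental OCI-AML3 replicate 3, and CBS between lines passed without OCI-AML2 clone 2 replicate 3. Sets called between the OCI-AML3 clones numbered from 102, without clone 2 replicate 2, to 369, without OCI-AML2 clone 2 replicate 1. The cause of these changes was not tested.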
